A study of Mus musculus with 3 samples.

Results

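A set of 10 genes of dendritic and Langerhans cells were followed through single-cell RNA-seq libraries of 3 mouse melanomas: Cd207, H2-M2, Flt3, Ccl17, Ccl22, Ccr7, Fscn1, Xcr1, Clec9a and Zbtb46. They belong to the 36530 features of the count tables and were selected on measured values of these same libraries. The selection used their levels and shares of cells in the cluster deposited as Monocytes2 and in the other clusters. It also used which of the genes share cells. All of these values, shared cells included, are therefore given as a description, without a test. The tumors came from a genetically engineered model in which 4-OH tamoxifen on the skin recombines Braf LSL.V600E through Tyr.CreER, on a C57BL/6J background. Some animals of the study also carried Rosa26 LSL.tdTomato, and the labels do not say which. Tyr.CreER restricts recombination to the melanocyte lineage, so the immune cells described here are cells of the host and not of the engineered lineage. One tumor was untreated, another had regressed on the BRAF inhibitor vemurafenib given by oral gavage, and the last had progressed on it. The labels give no age, sex or time on drug, and the study's text places the regressed tumor early in treatment. Each group held 1 tumor, so no difference between tumors has a replicate check, cells are not replicates, and every interval is a 95% interval that covers counting error only.

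Dendritic cells take up antigen in tissue, present it on MHC molecules and carry it to lymph nodes. Type 1 dendritic cells, which present antigen of dead cells to CD8+ T cells, are recognised by the chemokine receptor Xcr1 and the dead-cell receptor Clec9a, type 2 cells by lectins such as Mgl2 and Cd209a, and Langerhans cells of the epidermis by langerin, the product of Cd207. Whatever their origin, dendritic cells that mature switch on Ccr7, the receptor that guides them to lymph nodes, and the actin-bundling protein fascin, encoded by Fscn1.

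The tables held 4095 cells of the untreated, 3726 of the regressed and 4849 of the progressed tumor, with a median of 4496, 2658 and 4566 UMIs (unique molecular identifiers, each standing for 1 captured transcript) per cell. Monocytes2 held 69, 57 and 161 of these cells, or 1.68%, 1.53% and 3.32%, with a median of 5468, 7460 and 5704 UMIs. The regressed tumor was thus the shallowest over all cells and the deepest within Monocytes2. Levels are given as CPM, the UMIs of a gene summed over the cells named, divided by all UMIs of those cells and scaled to 1e+06. The name Monocytes2 was checked against marker lists. A list of 13 dendritic genes, most of its signal from MHC class II genes, summed to 76599.7 CPM (untreated), 70757 CPM (regressed) and 81197 CPM (progressed), against 27299.6 to 52611 CPM in the next cluster, Macrophages. A list of 14 monocyte and macrophage genes summed to 3059 to 5179 CPM in Monocytes2, against at least 23017 CPM in the cluster that led it. The cells are referred to by the deposited name. Their lead on the dendritic list came mostly through MHC class II genes. Summed lists of the finer types were less clean, since cells outside Monocytes2 also use some of their genes: Neutrophils exceeded Monocytes2 for the Langerhans list in the untreated (2398 against 2368 CPM) and regressed tumor (3052 against 657 CPM), and Tumor1 for the type 1 list in the regressed tumor (1449.9 against 1106 CPM). NK_T exceeded it for the mature list in the regressed tumor (1334 against 1276 CPM), and Undefined2 for the plasmacytoid list in every tumor (4578 to 5993 CPM against 362 to 1699 CPM). Of the 287 cells, 19 held under 20 UMIs of Cd74, the MHC class II invariant chain.

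In every tumor, 8 of the 10 genes had their highest level in Monocytes2, among the 17 or 18 clusters with at least 20 cells. Those 8 were Cd207, H2-M2, Flt3, Ccl17, Ccl22, Ccr7, Xcr1 and Clec9a. In these cells, 1.53% to 3.32% of each library, lay 75.1% of the UMIs of the 8 genes in the untreated tumor (778 of 1036, 72.3% to 77.7%), 67.2% in the regressed (250 of 372, 62.2% to 71.96%) and 86.2% in the progressed tumor (2070 of 2401, 84.8% to 87.6%). Fscn1 and Zbtb46 were left out of that sum after their values were seen. With them, the shares fell to 27.1%, 26.6% and 40.5%, since both were spread over stromal cells. A level at least 10-fold that of all other cells was reached by 7 of the 9 members that had at least 10 UMIs in the untreated tumor, where 1.49% of all genes reached it. The regressed tumor gave 7 of 9 members against 0.804% of genes, and the progressed tumor 8 of 10 against 2.11%. Because the rule used this contrast, nothing is read from these counts. Clec9a in the untreated and Ccl22 in the regressed tumor did not reach 10 UMIs.

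**Figure D1:**
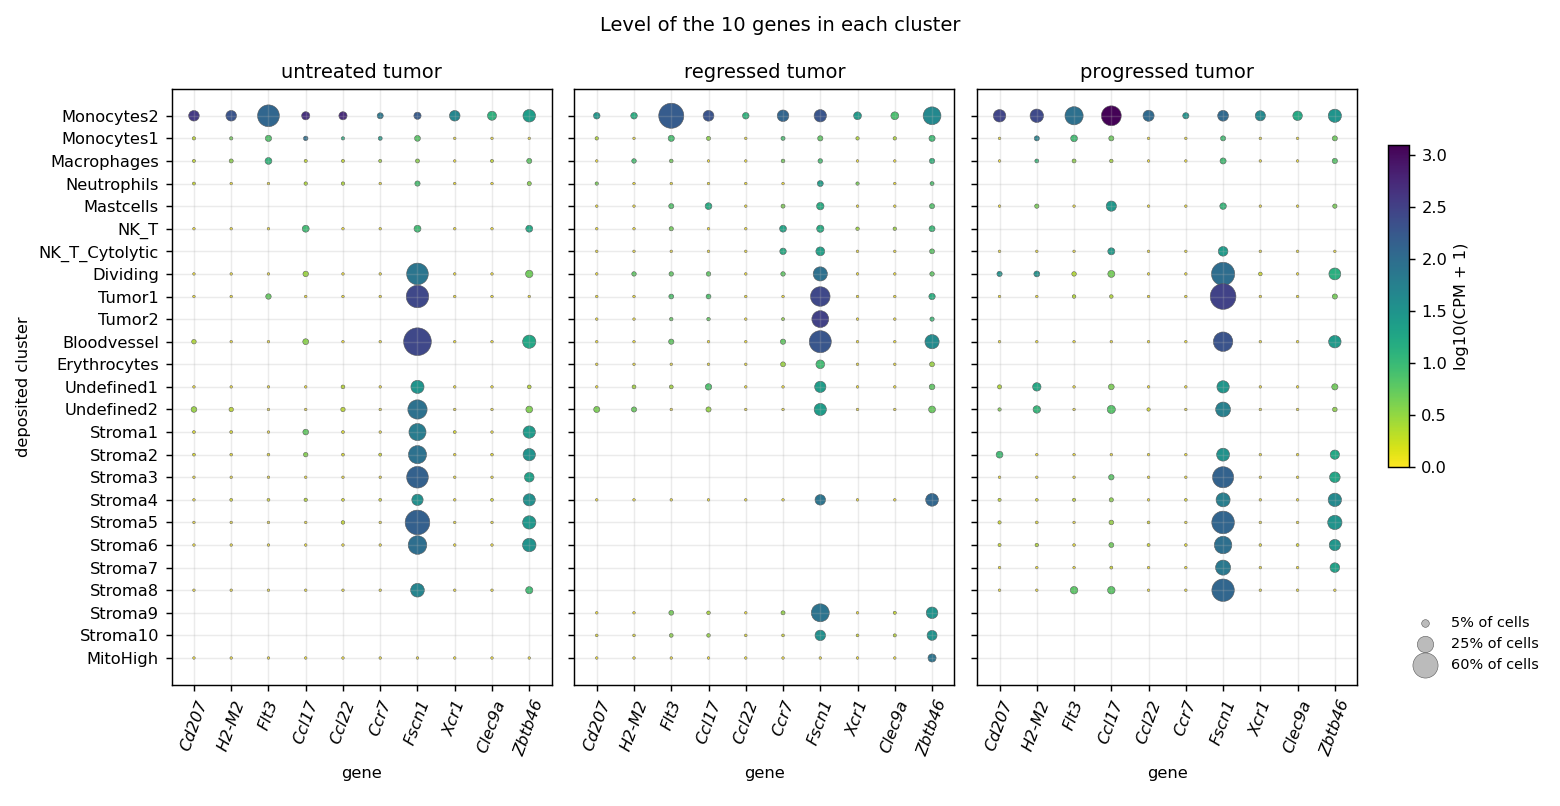
Each dot is a gene (horizontal axis) in a deposited cluster (vertical axis) of 1 tumor, coloured by log10(CPM + 1) and sized by the percent of cells with a UMI; clusters of under 20 cells in a tumor are left blank. In all 3 tumors 8 genes are highest in the top line, Monocytes2, while Fscn1 peaks in Tumor1 (267 and 307 CPM, untreated and progressed) or Tumor2 (319 CPM, regressed) and Zbtb46 in Stroma4.

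Fscn1 showed the widest spread. Monocytes2 held it at 166 CPM (untreated), 193 CPM (regressed) and 113 CPM (progressed), where it ranked in place 3, 3 and 6 among the clusters. The tumor cells of Tumor1 held 267 CPM in the untreated and 307 CPM in the progressed tumor, and those of Tumor2 held 319 CPM in the regressed tumor. A UMI of Fscn1 was found in 28.0%, 13.4% and 29.9% of all stromal cells, against 4.35%, 14.0% and 10.6% of Monocytes2 cells. Zbtb46, a transcription factor of the conventional dendritic lineage, was also broad. It reached 23.4, 43.7 and 30.6 CPM in Monocytes2 and 35.4, 121 and 42.3 CPM in Stroma4, the regressed Stroma4 value resting on 3 UMIs in 20 cells. Of all Fscn1 UMIs of a tumor 4.24% to 12.2% lay in Monocytes2, and of all Zbtb46 UMIs 2.16% to 7.14%.

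Cd207 encodes langerin, the lectin that forms Birbeck granules, and H2-M2 a non-classical MHC class I chain. Both promoters are shown because the genes shared most of their cells. They are RefSeq windows of 300 bases on GRCm38.p6, from 250 bases before the transcription start to 50 after it, printed 5′ to 3′ on the gene's strand. The Cd207 window is chr6:83677808-83678107 and the H2-M2 window chr17:37483505-37483804, both on the minus strand. Capitals mark matches to the AP-1 motif (TGANTCA, on both strands) or to the NF-kB consensus.

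Cd207: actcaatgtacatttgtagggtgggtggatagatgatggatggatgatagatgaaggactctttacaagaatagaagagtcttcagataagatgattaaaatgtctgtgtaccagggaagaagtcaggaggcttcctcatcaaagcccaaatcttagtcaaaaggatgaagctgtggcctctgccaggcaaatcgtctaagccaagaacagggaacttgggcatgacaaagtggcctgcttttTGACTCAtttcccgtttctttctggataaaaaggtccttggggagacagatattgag

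H2-M2: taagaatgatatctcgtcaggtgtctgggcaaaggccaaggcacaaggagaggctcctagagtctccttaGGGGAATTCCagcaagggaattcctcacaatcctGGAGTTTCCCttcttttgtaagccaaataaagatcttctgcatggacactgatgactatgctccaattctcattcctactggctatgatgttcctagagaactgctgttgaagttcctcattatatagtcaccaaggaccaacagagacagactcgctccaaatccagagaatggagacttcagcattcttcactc

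The Cd207 window held 1 AP-1 match, starting at base 244, and the H2-M2 window held 2 NF-kB matches, starting at bases 71 and 105. The AP-1 motif was found in 7.81% of all 32851 windows of this length and the NF-kB motif in 8.46%. Of the 9 members with a window, AP-1 also matched in Zbtb46, and no other member held either motif. These are matches of letters only.

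In the untreated tumor 7 of 69 Monocytes2 cells held Cd207 with 162 UMIs in all, in the regressed tumor 2 of 57 cells with 12 UMIs, and in the progressed tumor 23 of 161 cells with 295 UMIs. The levels were 379 CPM (323 to 443), 27.6 CPM (14.3 to 48.2) and 291 CPM (259 to 327). The regressed tumor was far below both others, and 11 of its 12 UMIs lay in 1 cell. The median per positive cell was 14 UMIs in the untreated and 9 in the progressed tumor. H2-M2 followed with 83, 6 and 266 UMIs in 7, 2 and 27 cells, or 194, 13.8 and 263 CPM. In stromal cells, which should lack langerin, Cd207 was found in 0.114%, 0.0521% and 0.321% of cells at a median depth of 4654, 3151.5 and 4388 UMIs, against 10.1%, 3.51% and 14.3% in Monocytes2. After each cell was thinned to 1000 UMIs, the Cd207 share was 6.06%, 3.57% and 9.62% of Monocytes2 cells and at most 0.0588% of stromal cells.

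Cd207 and H2-M2 marked largely the same cells, which is a description, since shared cells were part of the rule that chose the genes. Of the 32 Monocytes2 cells with Cd207, 25 held H2-M2 (78.1%), against 4.31% of the other 255 cells. The untreated tumor gave 6 of 7 cells, the progressed 19 of 23 and the regressed 0 of 2. Epcam, the adhesion molecule of Langerhans cells and keratinocytes, was found in 26 of the 32 cells, against 13.3% of the rest. Csf1r, the receptor on which Langerhans cells depend, was found in 23 of the 32, against 43.9% of the rest.

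Of the 8 other genes of the Langerhans list, 7 were at least 2-fold higher in the 32 Cd207 cells than in the other Monocytes2 cells, where 11% of all genes were. Mfge8, a bridge to dying cells, reached 3050.03 CPM against 68.0 CPM, and Epcam 1261 against 51.1 CPM. Cldn1, a tight junction protein, stood at 329 CPM against 65.0 CPM. The gene with the highest ratio in Cd207 cells was H2-M5, another non-classical MHC class I gene, with 527 CPM in 19 of 32 cells and 4.21 CPM in the rest. It was followed by Hpgds (819 against 10.2 CPM) and by Ptgs1 and Ltc4s, enzymes of prostaglandin and leukotriene synthesis, at 753 against 22.9 CPM and 781 against 25.9 CPM. Monocyte genes were sparse in these cells: Ly6c2 had 0 UMIs against 367 in the rest, and Ccr2 32.9 CPM against 507 CPM. Cd74 stood at 60855 CPM in the Cd207 cells, and at 35564 to 40268 CPM over all Monocytes2 cells of a tumor. Flt3, on which Langerhans cells do not depend, was found in 7 of the 32 cells, against 42.4% of the rest.

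The 32 Cd207 cells were not uniform. In 5 of them Xcr1 or Clec9a was also found, with 4 of these cells in the progressed and 1 in the regressed tumor. All 5 held Irf8, the transcription factor of type 1 dendritic cells, 4 held Flt3, 1 held H2-M2 and 0 held Csf1r. They carried 19 Cd207 UMIs in all. The other 27 carried 450 Cd207 UMIs, with H2-M2 in 24 cells, Epcam in 24 and Csf1r in 23. The regressed cell with 11 Cd207 UMIs was 1 of the 5, so that of the 12 regressed Cd207 UMIs, 1 lay outside cells with type 1 genes.

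Langerin-positive cells were also found outside Monocytes2. In the progressed tumor, 2 cells of the Dividing cluster held 31 and 23 Cd207 UMIs, 24 and 28 H2-M2 UMIs and 18 and 11 Epcam UMIs. They made up 54 of the 55 Cd207 UMIs of that cluster, and 54 of the 74 found outside Monocytes2 in that tumor. Both held Mki67 (3 and 2 UMIs) and Top2a (6 and 9 UMIs), genes of dividing cells. A cell of the keratin-rich cluster Undefined2 held 6 Cd207, 4 H2-M2, 13 Epcam, 352 Cd74 and 74 Krt14 UMIs, and whether 1 or more cells shared its droplet was not tested. H2-M2 was seen without Cd207 at 3 to 8 UMIs in 6 cells of Undefined1 and Undefined2 with 26 to 263 UMIs of Krt14, a keratin of basal epidermis, and 0 to 29 UMIs of Cd74. It also reached 10 UMIs in a macrophage and 13 in a Monocytes1 cell of the progressed tumor.

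**Figure D2:**
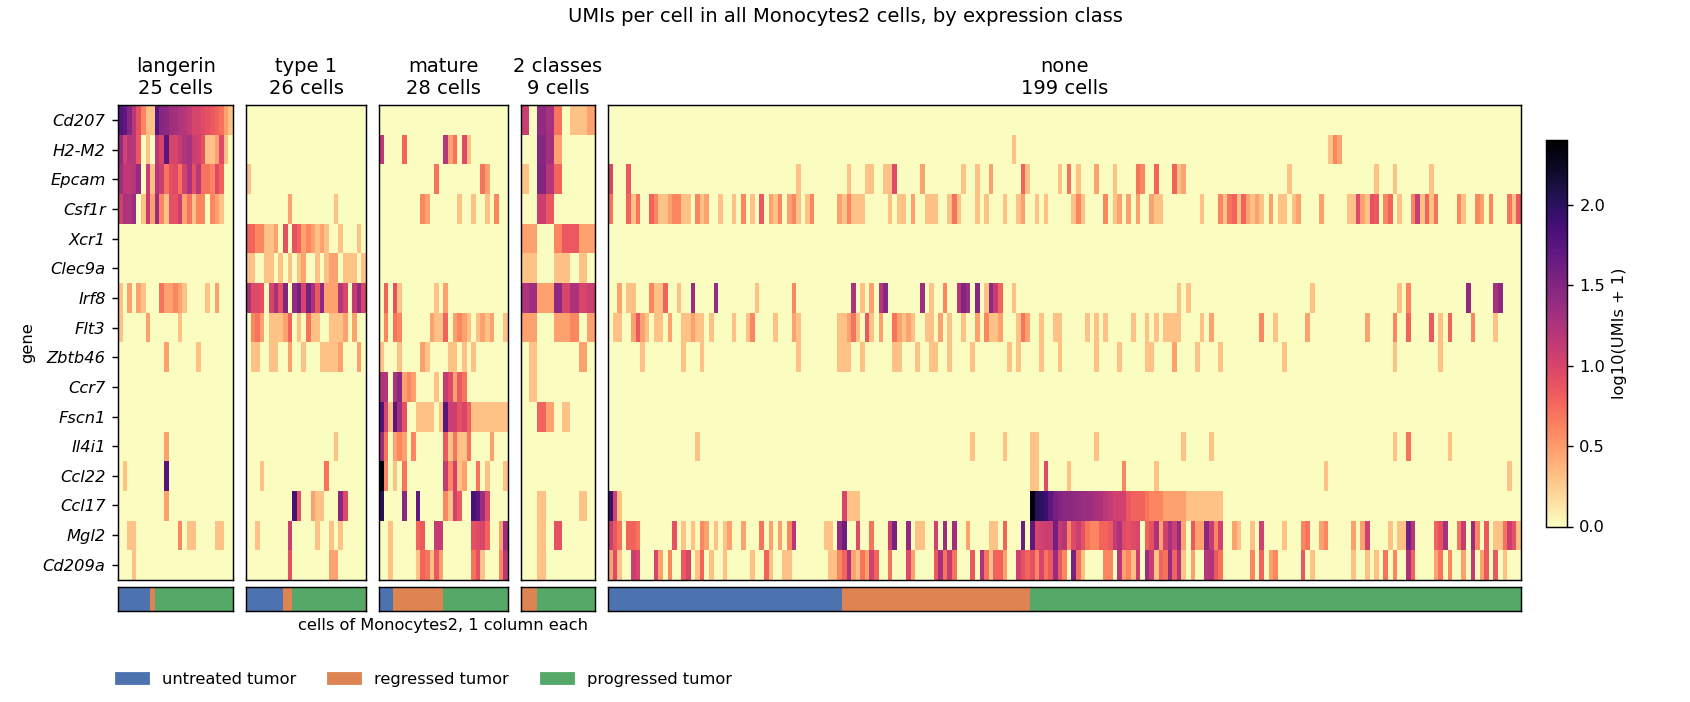
Each column is 1 of the 287 Monocytes2 cells and each line a gene, coloured by log10(UMIs + 1), in panels by expression class; the bar below gives the tumor. Most Cd207 cells hold H2-M2, Epcam and Csf1r, and 24 of the 25 Xcr1 cells hold Irf8 and none Csf1r. Of the 14 Ccr7 cells, 10 hold both Fscn1 and Il4i1. The 199 cells in no class include many with Csf1r, Ccl17, Mgl2 and Cd209a.

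Type 1 genes were low in counts. Xcr1 had 20 UMIs in 7 cells of the untreated, 11 in 3 of the regressed and 44 in 15 of the progressed tumor, or 46.8 CPM (28.6 to 72.4), 25.3 CPM (12.6 to 45.2) and 43.5 CPM (31.6 to 58.3). Clec9a had 5, 3 and 16 UMIs in 5, 3 and 13 cells, never more than 2 per cell, or 11.7, 6.90 and 15.8 CPM. The intervals of the 3 tumors overlapped for both genes. Outside Monocytes2, 1 to 6 UMIs of Xcr1 and 2 to 8 of Clec9a remained per tumor. After thinning to 1000 UMIs per cell, Xcr1 was left in 3, 0 and 4 cells. A count of 0 in 56 thinned cells, set to 3 counts, allows up to 5.36% of such cells with a UMI, and at full depth 3 of 57 cells held one.

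Of the 25 Xcr1 cells, 13 held Clec9a, against 3.05% of the rest, and 24 held Irf8, against 23.7% of the rest. Xcr1 cells held 0 UMIs of the monocytic receptor Csf1r and of the type 2 lectin Cd209a. All 8 other genes of the type 1 list were at least 2-fold higher in the 33 cells with Xcr1 or Clec9a, where 5.5% of all genes were. Irf8 stood at 1769 against 251 CPM and was found in 30 of 33 cells. Tlr3, a sensor of double-stranded RNA, had 32 UMIs in these cells and 3 in the other 254. Itgae, the integrin CD103, stood at 204 against 8.004 CPM, and the cross-presentation factor Wdfy4 at 387 against 87.4 CPM. Gpr141b had 36 UMIs in 19 of the 33 cells and 0 elsewhere in Monocytes2, at least 77.8-fold higher with the other cells set to 3 UMIs in all. H2-Ob, a chain of the MHC class II peptide-loading regulator H2-O, was found in 60.6% of the 33 cells and in 18.5% of the rest. The 33 cells were not uniform: 10 held Siglech, a lectin of plasmacytoid dendritic cells, 3 held Cd209a and 2 held Csf1r. Of the 8 with Clec9a and without Xcr1, 4 held Siglech.

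Flt3 was the member found in the most Monocytes2 cells, 115 of 287, followed by Ccl17 in 70 and Zbtb46 in 53. Flt3 is the growth factor receptor on which conventional dendritic cells depend. It was found in 31 of 69, 34 of 57 and 50 of 161 cells, with 52, 71 and 92 UMIs and at most 6 per cell, or 122 CPM (91.0 to 160), 163 CPM (127 to 206) and 90.9 CPM (73.3 to 111). The regressed tumor was the highest and its interval did not meet that of the progressed tumor. At 1000 UMIs per cell the shares were 7.58%, 21.4% and 10.3%. Flt3 was held by 68.0% of Xcr1 cells and 64.3% of Ccr7 cells, and by 21.9% of Cd207 cells. In Flt3 cells, 6 of 10 type 1 genes were at least 2-fold higher than in the other cells, where 5.16% of all genes were. Zbtb46 gave 10, 19 and 31 UMIs in 10, 17 and 26 cells, with 1 or 2 per cell. Its share of Monocytes2 cells, 14.5%, 29.8% and 16.1%, is to be read beside that of the shallower stromal cells, 13.7%, 9.33% and 13.9%. At 1000 UMIs per cell the shares were 0%, 3.57% and 4.49% in Monocytes2 and 2.65%, 3.75% and 2.82% in stroma.

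Ccr7 was rare and concentrated. It had 31 UMIs in 2 cells of the untreated, 54 in 7 of the regressed and 32 in 5 of the progressed tumor, or 72.6 CPM (49.3 to 103), 124 CPM (93.2 to 162) and 31.6 CPM (21.6 to 44.6). The order of the levels was regressed, untreated, progressed, and the first pair of intervals overlapped. One regressed cell held 28 of the 54 UMIs and another 17. The 14 Ccr7 cells fell into a group of 10 with Fscn1 and a group of 4 without, all 4 in the regressed tumor and with 1 to 3 Ccr7 UMIs each. One of those 4 held 3 UMIs of Cd79a and 14 of the B cell list, and another held Xcr1 and Clec9a. A further cell held the mature genes Il4i1 (3 UMIs), Cacnb3 (3), Socs2 (1), Relb (1) and Ccl5 (22), and the last held 12 UMIs of Mgl2 and 6 of Cd209a.

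The 10 cells with both Ccr7 and Fscn1 (2 untreated, 3 regressed, 5 progressed) carried 110 of the 117 Ccr7 UMIs of Monocytes2 and 242 of its 269 Fscn1 UMIs. All 10 held Il4i1, an amino acid oxidase, Relb, an NF-kB subunit, and Cd83, a surface marker of maturation. Ccl22 was found in 9, Cacnb3 in 9 and H2-M2 in 6. None held Cd207, Epcam, Mgl2, Cd209a, Xcr1 or Clec9a. With 10 cells, a count of 0 says little about rare combinations. At most 2 UMIs of the T and NK cell list were found per cell, and no UMI of the B cell list. Their Cd74 level was 16044 CPM, against 39130.1 CPM in the other 277 cells, with a range of 1016 to 39196 per cell, and 2 of the 10 held under 20 Cd74 UMIs.

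Of the 14 other mature genes with at least 10 UMIs, 11 were at least 2-fold higher in the 32 cells with Ccr7 or Fscn1, where 13.8% of all genes were. Ccl5, a chemokine for T cells, stood at 2666 against 82.4 CPM and Serpinb6b, a protease inhibitor, at 166 against 4.92 CPM. Cacnb3, a calcium channel subunit, stood at 137 against 4.92 CPM, and Traf1 at 166 against 41.2 CPM. Nudt17 had 23 UMIs in these cells and 0 in the rest. Cd86, a costimulatory ligand, was not higher, at 68.7 against 81.1 CPM. Il4i1 and Il4i1b had 54 UMIs each in these cells, and their spans overlap in the RefSeq annotation, so how reads were split between them is uncertain. Of the 32 cells, 18 held Fscn1 without Ccr7, with 27 Fscn1 UMIs in all, and 11 of those held Mgl2 and 12 Cd209a. With Fscn1 present in up to 29.9% of stromal cells, part of these 18 cells cannot be told apart from free RNA.

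H2-M2 was shared between the langerin and the mature cells. It was found outside Cd207 cells in 11 cells, of which 7 held Fscn1, 6 Ccr7, 6 Ccl22 and 7 Il4i1. In the 36 H2-M2 cells, 12 of 16 mature genes and 5 of 8 Langerhans genes were at least 2-fold higher than in the other Monocytes2 cells, where 12% of all genes were.

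**Figure D3:**
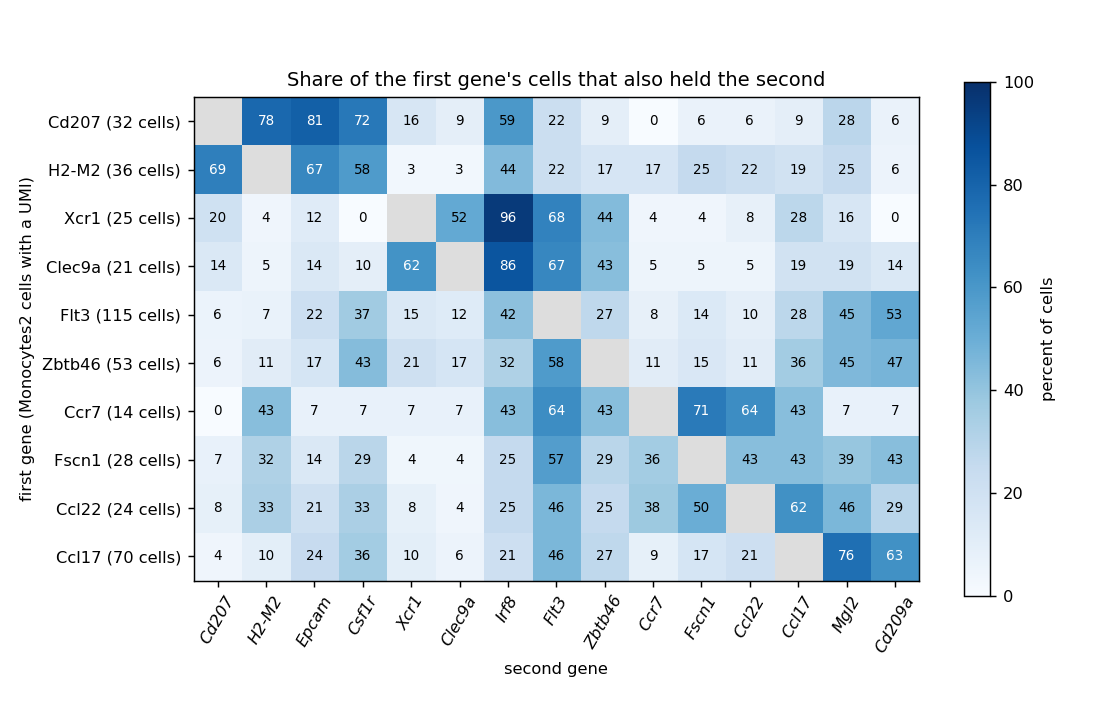
Each square gives the percent of Monocytes2 cells with a UMI of the first gene (vertical axis, with its number of cells over the 3 tumors) that also held the second gene (horizontal axis). Cd207 pairs with H2-M2 (78%) and Epcam (81%), Xcr1 with Irf8 (96%), Ccr7 with Fscn1 (71%) and Ccl22 (64%), and Ccl17 with Mgl2 (76%), while Cd207 and Ccr7 share no cell.

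Ccl17 and Ccl22 are neighbouring genes on chromosome 8 (94809380 to 94812038 and 94745684 to 94751388, GRCm38), and both encode ligands of Ccr4, a receptor of skin-homing and regulatory T cells. Ccl22 had 228 UMIs in 4 cells of the untreated, 5 in 2 of the regressed and 111 in 18 of the progressed tumor, or 534, 11.5 and 109.6 CPM. The untreated value rested on 1 cell with 223 UMIs, which also held 105 of Ccl17, 61 of Fscn1 and 16 of Ccr7. Without it the untreated level was 11.9 CPM (3.87 to 27.8), beside 11.5 CPM in the regressed tumor. In the progressed tumor the highest cell held 56 of the 111 UMIs, and 54.8 CPM remained without it. That cell also held 26 UMIs of Cd207, 53 of H2-M2, 4 of Epcam and 9 of Cd83. It held 0 UMIs of Ccr7, Fscn1 and Mgl2.

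Ccl17 was held by more cells than Ccl22 in the progressed tumor. It had 197 UMIs in 4 of 69 cells of the untreated, 88 in 6 of 57 of the regressed and 1214 in 60 of 161 of the progressed tumor. The levels were 461 CPM (399 to 531), 202 CPM (162 to 249) and 1199 CPM (1133 to 1268). None of these intervals met. The share of cells was 5.80% (1.60% to 14.2%), 10.5% (3.96% to 21.5%) and 37.3% (29.8% to 45.2%), so that the interval of the progressed tumor lay above both others. At 1000 UMIs per cell the shares were 4.55%, 5.36% and 26.9%. The highest cell held 53.3%, 54.5% and 17.4% of the Ccl17 UMIs, and the levels without it were 219, 92.9 and 1001 CPM. In stromal cells 1.14%, 0.626% and 1.34% held a Ccl17 UMI.

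The cells with Ccl17 were mostly not the Ccr7 cells. Mgl2 was found in 53 of the 70 Ccl17 cells (75.7%), against 37.8% of the rest, and Cd209a in 44 of the 70 (62.9%), against 34.6%. Ccr7 was found in 6 of the 70, all of them among the 10 cells with both Ccr7 and Fscn1. Of 8 other type 2 genes, Mgl2 (1123 against 388 CPM) and Cd209a (662 against 251 CPM) were at least 2-fold higher in Ccl17 cells, where 3.77% of all genes were. Of 16 mature genes, 8 were. That count includes the 6 cells with Ccr7 and Fscn1, and the other Ccl17 cells were not measured alone. Cd40, a costimulatory receptor, stood at 83.5 against 22.9 CPM. Ccl22 cells divided into 9 with Ccr7, all of which held Fscn1, Il4i1 and Relb, and 15 without. Of the 15, 13 were in the progressed tumor, 11 held Mgl2 and 9 held Ccl17. The 15 cells carried 85 Ccl22 UMIs, and 56 of these lay in the progressed Cd207 cell named above, without Mgl2. In all 24 Ccl22 cells, 14 of 15 mature genes were at least 2-fold higher than in the rest, where 7.46% of all genes were. Cd83 was held by 83.3% of Ccl22 cells, against 38.0%.

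Chemokine-producing cells with Ccr7 were also found in Monocytes1 of the untreated tumor. Its 3 Ccl17 cells held 66, 23 and 19 UMIs, all 108 of that cluster. The first of them also held 19 Ccr7 and 15 Ccl22 UMIs and the next 9 Ccr7 UMIs, with 357 and 231 UMIs of Cd74 and 0 and 1 of Lyz2. These cells held 28 of the 36 Ccr7 UMIs outside Monocytes2 in that tumor, so a count confined to Monocytes2 left them out. In the progressed tumor 1 NK_T cell held 5 Ccr7 and 4 Xcr1 UMIs with 3 of Cd3e, a T cell receptor subunit, and 2 of Cd74. In the regressed tumor 7 NK_T cells held Ccr7, which circulating T cells also use, with at most 2 UMIs each.

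The 287 cells were set in 3 expression classes by detection alone: langerin (Cd207), type 1 (Xcr1 or Clec9a) and mature (Ccr7 or Fscn1). They are ranges of counts and not cell types. Of all cells 79 were in 1 class, 9 in 2 and 0 in 3. The 9 were 5 with langerin and type 1 genes, 2 with langerin and mature genes and 2 with type 1 and mature genes. Many cells lay at the limit of 1 UMI, namely 17 of the 32 mature, 8 of the 33 type 1 and 5 of the 32 langerin cells. The 199 cells in no class included 142 with Mgl2 or Cd209a, 49 with Ccl17 and 21 with Siglech. The monocytic receptor Csf1r was found in 104 of the 199, and 73 of these were among the 142 with Mgl2 or Cd209a.

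The langerin class held 7 of 69 cells of the untreated (10.1%, 4.18% to 19.8%), 2 of 57 of the regressed (3.51%, 0.428% to 12.1%) and 23 of 161 of the progressed tumor (14.3%, 9.28% to 20.7%). The type 1 class held 8 (11.6%, 5.14% to 21.6%), 4 (7.02%, 1.95% to 17.0%) and 21 cells (13%, 8.26% to 19.2%). The mature class held 3 (4.35%, 0.906% to 12.2%), 12 (21.1%, 11.4% to 33.9%) and 17 cells (10.6%, 6.27% to 16.4%). Langerin and type 1 cells were lowest and mature cells highest in the regressed tumor, and all intervals of a class overlapped between tumors. With at least 2 UMIs required, the mature share was 2.90%, 8.77% and 4.97% in that order of tumors, and with both Ccr7 and Fscn1 required it was 2.90%, 5.26% and 3.11%. The regressed tumor stayed the highest at these lower levels, which rested on 5 and 3 of its 57 cells.

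**Figure D4:**
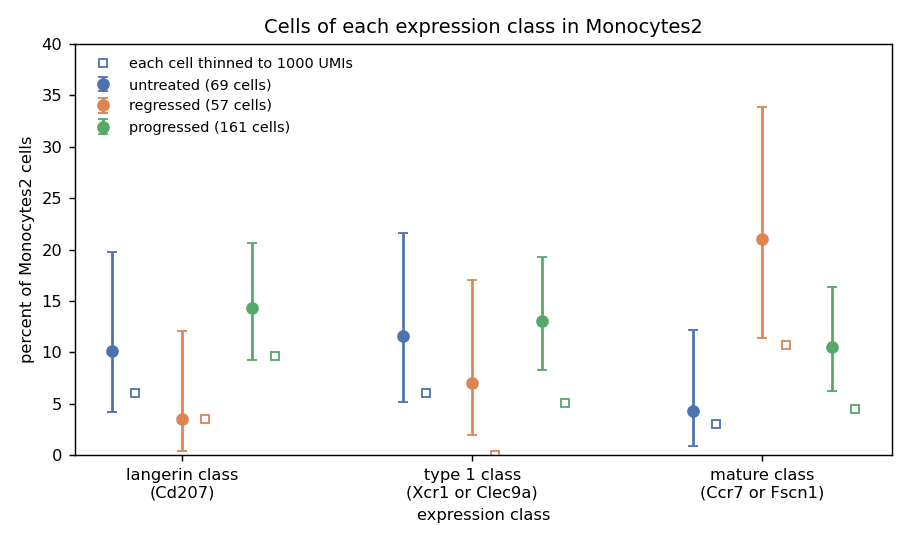
Percent of Monocytes2 cells (vertical axis) in each expression class (horizontal axis) by tumor; filled points with 95% Clopper-Pearson bars use all cells, open squares the same cells thinned to 1000 UMIs. The bars of the 3 tumors overlap within each class, and thinning lowers the mature share of the regressed tumor from 21.1% to 10.7%.

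Differences between tumors within Monocytes2 were set beside those of all genes. A ratio past 2-fold was counted for genes with at least 10 UMIs in the pair of tumors, and the 3 comparisons share tumors. In the regressed against the untreated tumor, 0 of 9 members were past 2-fold higher, where 16.5% of all genes were, and 4 were past 2-fold lower, where 7.57% were: Cd207, H2-M2, Ccl17 and Ccl22. In the progressed against the untreated tumor, 1 of 10 was higher (Ccl17), where 9.51% of genes were, and 2 were lower (Ccl22 and Ccr7), where 6.88% were. In the progressed against the regressed tumor, 5 of 10 were higher (Cd207, H2-M2, Ccl17, Ccl22 and Clec9a), where 7.74% were, and 1 was lower (Ccr7), where 16.3% were. The median log2 ratio of the members was -0.89, -0.24 and 0.99 in these comparisons, against 0.17, -0.05 and -0.22 over all genes. With TMM scaling factors, which correct for a few genes taking many reads, 12.6% of genes rather than 7.74% were higher and 10.2% rather than 16.3% lower in the last comparison, and all 13 member ratios past 2-fold stayed past it. Xcr1 then also passed 2-fold, at -1.08 in the regressed against the untreated and 1.07 in the progressed against the regressed tumor.

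For Cd207 the log2 ratio was -3.78 (-4.76 to -2.94) in the regressed against the untreated tumor and 3.40 (2.57 to 4.37) in the progressed against the regressed tumor. H2-M2 gave -3.82 (-5.30 to -2.63) and 4.25 (3.11 to 5.71). Between the progressed and untreated tumor the pair stayed within 2-fold, at -0.38 (-0.66 to -0.10) and 0.43 (0.07 to 0.81). Both directions stayed past 2-fold in all 7 alternatives, but the size did not hold. The first ratio ranged from -6.72 to -2.46 for Cd207 and from -5.92 to -1.18 for H2-M2, and the other from 2.84 to 6.65 and from 2.29 to 6.51, with the smallest sizes after thinning and the largest without the highest cell of each tumor. After thinning, 0 of 56 regressed cells held H2-M2, so its thinned ratios used the 3 UMIs set for a count of 0. Without the highest cell, 1 regressed UMI of each gene remained. The main ratios rest on 7, 2 and 23 Cd207 cells and on 7, 2 and 27 H2-M2 cells. In the regressed tumor these were different cells, and 5 of its 6 H2-M2 UMIs lay in 1 cell with Ccr7 and Fscn1.

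For Ccl17 the log2 ratio was 1.38 (1.16 to 1.60) in the progressed against the untreated and 2.57 (2.25 to 2.90) in the progressed against the regressed tumor. Its ratio of -1.19 in the regressed against the untreated tumor came within 2-fold, at -0.41, when the deepest 5% of cells were left out. It also did so with equal weight per cell, at -0.67, and after thinning, at -0.94. Ccl22 in the progressed against the untreated tumor gave -2.28, and 2.20 without the highest cell of each tumor, so its direction turned on 1 untreated cell. Ccr7 gave -1.20 (-1.96 to -0.44) in that comparison, -0.84 without its highest cells and -0.19 over all immune clusters. Clec9a was past 2-fold in the progressed against the regressed tumor with an interval of -0.61 to 3.62. After thinning it was left in 4 of 156 progressed and 0 of 56 regressed cells, so no ratio was measured. Flt3, Fscn1 and Zbtb46 stayed within 2-fold in all 3 comparisons, with and without TMM factors, and Xcr1 without them, at -0.89 (-2.10 to 0.24), -0.11 (-0.90 to 0.73) and 0.78 (-0.20 to 1.88).

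**Figure D5:**
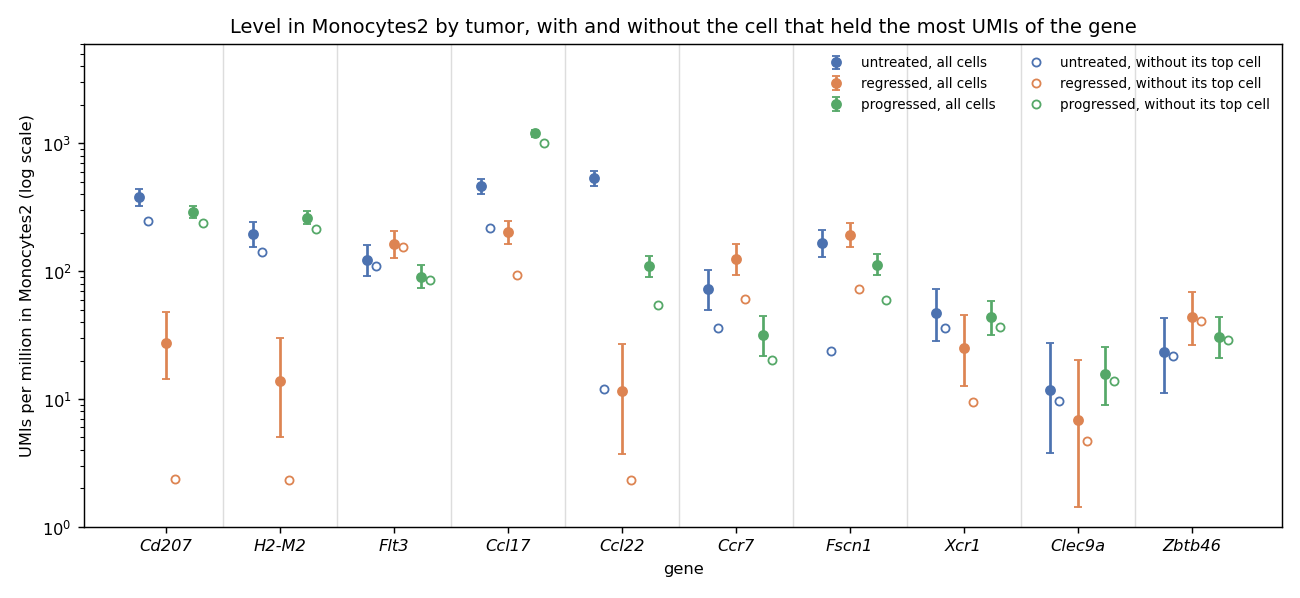
Level of each gene in Monocytes2 (vertical axis, CPM, log scale) by tumor, with 95% Poisson bars; open points leave out the cell with the most UMIs of that gene. Untreated Ccl22 drops from 534 to 11.9 CPM without 1 cell, while progressed Ccl17 goes from 1199 to 1001 CPM and Flt3 changes little.

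Other values moved with the tumors inside Monocytes2. Xist, expressed from the inactive X chromosome of female cells, stood at 1211 CPM in the untreated, 2.30 CPM in the regressed and 1371 CPM in the progressed tumor. The labels give no sex, and sex and tumor state cannot be told apart in any comparison with the regressed tumor. Signals of other cell types were highest in the regressed tumor for red blood cells (Hbb-bs at 1602 CPM, against 21.1 and 1.98 CPM in the untreated and progressed tumor), for 6 keratinocyte genes (1004 CPM, against 136 and 444 CPM) and for 4 mast cell genes (508 CPM, against 9.37 and 58.3 CPM). The neutrophil list was at 740.2, 496 and 10.9 CPM in that order of tumors. The 6 fibroblast genes summed to 2204 to 3480.04 CPM. The plasmacytoid list was highest in the regressed tumor, at 480.2, 1699 and 362 CPM, and the list of 4 cycling genes lowest there, at 288, 73.6 and 308 CPM. T and NK cell genes reached at most 103 CPM and melanocyte genes at most 46.0 CPM. Their part in the differences of the members was not tested. Retnla, a gene of alternatively activated macrophages, and Ccl24, a chemokine for eosinophils, were among the genes that differed most between tumors. Retnla had 1096, 0 and 14955 UMIs and Ccl24 76, 0 and 195, so both were lowest in the regressed tumor like Cd207.

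The partners of these genes were measured in the same tumors. Flt3l, the ligand of Flt3, was highest in NK_T (165 CPM in the untreated tumor) or NK_T_Cytolytic (175 and 74.1 CPM in the regressed and progressed tumor). Xcl1, the ligand of Xcr1, was highest in NK_T_Cytolytic in all 3 tumors, at 1432 (in 15 cells), 1279 and 1198 CPM, and stood at 0, 20.7 and 21.7 CPM in Monocytes2. Il34, a Csf1r ligand that maintains Langerhans cells, stood at 98.6, 135 and 154 CPM over all stromal cells and at 0, 18.4 and 8.89 CPM in Monocytes2. Ccr4, the receptor of both chemokines, was at 40.9 CPM in NK_T of the regressed tumor. Tgfb1, a growth factor needed by Langerhans cells, was found in Monocytes2 at 279, 244 and 245 CPM, below Monocytes1 in each tumor (471, 318 and 759.7 CPM).

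The genes with the most similar pattern were sought across 53 groups of at least 20 cells (cluster by tumor), which share libraries and in which most groups stood near 0. For Cd207 they were P2rx2 (r = 0.92), Xcr1 (0.86), Ccl22 (0.82), Spib (0.81) and Nccrp1 (0.80). For Xcr1 they were P2rx2 (0.89), Spib (0.88), Fcrla (0.87), Cd207 (0.86) and Klk1 (0.85). For Ccr7 they were Trim36 (0.80), Flt3 (0.78), Kmo, Gm30461 and Cd300c (all 0.75). A high correlation across clusters did not mean mostly the same cells. Cd207 and Xcr1 correlated at 0.86 across groups, and 5 of the 32 Cd207 cells held Xcr1 (15.6%), against 7.84% of the rest.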

How the data were processed

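Single-cell suspensions of 3 tumors were made into 10x Genomics 3′ libraries, 1 per tumor. Per the study's methods, the authors aligned reads to GRCm38 with GSNAP, counted UMIs of uniquely mapped exonic sense reads, left out cells with few UMIs (the lowest in the tables held 326) and clustered cells with Seurat 2.2.0. The deposited count tables hold raw UMI counts per gene and cell, and the deposited cell table holds each cell's cluster, sample and total. The annotation release is not given in the sources used here. Table sums per tumor were 4.42% to 6.09% above the deposited totals, and in single cells up to 106% above.

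The 10 genes, lists and classes were chosen with earlier results of these data known. An allele of the model and a gene of the Langerhans list are not reported here. Entrez IDs were matched to RefSeq symbols (31049 of 36530). UMIs were summed over the cells of a cluster and tumor and divided by all their UMIs (CPM). Intervals were exact Poisson for levels, Clopper-Pearson for shares and conditional binomial for ratios, all at 95%, and cover counting error only. A ratio against 0 used 3 UMIs. No test was made, since each group held 1 tumor. Named genes were the members, genes of the lists and partners above 0, the 5 most like Cd207, Ccr7 and Xcr1 (at least 50 UMIs), the 10 with the highest ratio in each class (at least 30 UMIs, higher in each tumor), and the 5 most different between tumors. Thinning drew each cell to 1000 UMIs and left out shallower cells, 3, 1 and 5 in Monocytes2 and 29, 185 and 22 in stroma (untreated, regressed, progressed). Cells carry running names and no barcodes, so shared barcodes could not be counted, and 0 names were shared between libraries. No doublet caller was run; alternatives left out the deepest 5% of cells, or cells with at least 5 UMIs of keratinocyte, fibroblast, T cell or neutrophil lists. Alternatives without the highest cell of a gene, without cells under 20 UMIs of Cd74 and with both mature genes required were chosen after seeing the data. TMM factors came from edgeR 4.0.16 (R 4.3.3). Scripts ran on Python 3.11.15 with scipy 1.17.1 and were tested on simulated data.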

Additional observations from a re-analysis of the deposited data

How the results depend on the processing

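No paired analysis was possible because each group held 1 tumor. The share of the UMIs of all 10 genes in Monocytes2 (27.1%, 26.6% and 40.5% in the untreated, regressed and progressed tumor) was 32.0%, 19.0% and 42.2% when the deepest 5% of cells were left out, which left out 20 of the 57 regressed Monocytes2 cells. At 1000 UMIs per cell it was 24.4% and 16.1% in the untreated and regressed tumor. With thinning, the mature class fell to 10.7% and 4.49% of cells in the regressed and progressed tumor, and the type 1 class to 0% and 5.13%. With 2 UMIs required, the mature class was 8.77% and 4.97%, and with both genes required 5.26% and 3.11%. Without cells that held at least 5 UMIs of another cell type's list (51, 52 and 135 left out), there were 3.85% mature cells in the progressed and 0% type 1 and 20% langerin cells (1 of 5) in the regressed tumor. Of the 13 ratios past 2-fold, 13 stayed past it in the same direction with TMM factors and with cells of at least 1000 UMIs, 12 with equal weight per cell and without the deepest 5% of cells, and 11 with thinning, over all immune clusters, or without the highest cell of the gene. In the last case Ccl22 in the progressed against the untreated tumor reversed to 2.20. TMM factors moved the genes past 2-fold in the progressed against the regressed tumor from 7.74% higher and 16.3% lower to 12.6% and 10.2%. Without the filter, 11.02% rather than 6.88% of genes were past 2-fold lower in the progressed against the untreated tumor. Over all immune clusters, 28.2% of genes rather than 16.5% were higher and 4.28% rather than 7.57% lower in the regressed against the untreated tumor, and 4.61% rather than 7.74% higher in the progressed against the regressed tumor. Counts of 3 to 44 UMIs for Clec9a and Xcr1 limit what their levels can show.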
